A study of Macaca mulatta with 19 samples.

Results

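The genes described here encode chains of the basement membrane and enzymes that modify its collagen: COL4A1 and COL4A2 (collagen IV), LAMB1 and LAMC1 (laminin), SPARC, FN1 (fibronectin), P3H2 and PLOD2. They were chosen by symbol from the count table, as basement membrane chains and collagen-modifying enzymes with abundant reads in these libraries, and with earlier results of these data known. They are 8 of the 32386 genes in the table. Their levels are therefore given as a description. All 8 passed the filter on low counts, since the lowest count of any of them in any library was 2220.

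RNA was sequenced from luteinized granulosa cells of 19 rhesus macaques (Macaca mulatta), 1 library an animal. Each library came from the contents of the single follicle that had been selected naturally and was aspirated around the time of ovulation, in a cycle with controlled ovulation. The study asked how long-term androgen and a Western-style diet act on this follicle. Oocytes were classed as metaphase I (MI), metaphase II (MII), germinal vesicle (GV) or degenerating.

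Treatment began near menarche and lasted about 3.5 years in every group. Chow+C animals (n = 4) ate standard chow and carried cholesterol implants, the control for the steroid. Chow+T animals (n = 4) ate chow and carried testosterone implants, which raised testosterone 4 to 5 fold above the cholesterol groups. WSD+C animals (n = 5) ate the Western-style diet with cholesterol implants, and WSD+T animals (n = 6) had that diet and testosterone together. No genetic change is named in the labels, and no age or sorting of the aspirated cells is given there. The follicle contents are the model's limit: they can hold blood, theca and vessel cells beside granulosa cells.

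A basement membrane surrounds the granulosa layer of the follicle until ovulation and is broken down as blood vessels grow into the forming corpus luteum. Its scaffold is built of a collagen IV network and a laminin network. Collagen IV trimers are most often made of alpha-1 and alpha-2 chains, encoded by COL4A1 and COL4A2, while laminins are trimers of an alpha, a beta and a gamma chain. Before secretion, procollagen chains are hydroxylated on proline and lysine in the endoplasmic reticulum. P3H2 is a prolyl 3-hydroxylase with collagen IV among its substrates, and PLOD2 is a lysyl hydroxylase of collagen telopeptides. SPARC binds collagen IV, and fibronectin is a cell-adhesive glycoprotein of the extracellular matrix.

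Gene counts ranged from 28832132 to 56385679 a library, and between 49.1% and 69.1% of reads fell in genes. Granulosa markers were present throughout: 10 of the 11 in the table, among them INHA, CYP19A1 and STAR, reached at least 1 CPM (counts scaled to library depth) in every library. Chow+C 2 had the lowest share of reads in genes and the highest share of mitochondrial counts, at 17.9% of gene counts. WSD+C 4 had a summed erythroid marker level of 101741 CPM and the lowest granulosa score, 6.30, where a score is the mean log2 CPM of a marker list. WSD+C 4 and WSD+T 6 had the highest leukocyte scores, 7.08 and 7.14, against a median of 1.28 over the 19 libraries. Results that rest on these 3 libraries are given with and without them.

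Together the 8 genes took between 0.557% of gene counts (WSD+C 4) and 3.19% (Chow+T 4). The other low shares were 0.933% in Chow+C 2 and 1.39% in WSD+T 6. CPM here are scaled by library and not by transcript length, so the order of levels between different genes is not read. In bulk libraries, fewer cells of a type and less RNA per cell cannot be told apart.

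COL4A1 averaged 4903 CPM ± 2130 (SD, n = 19). In Chow+C it stood at 6626, 1387, 6679 and 5960 CPM (replicates in order), and in Chow+T at 5884, 3468, 6450 and 8442 CPM. In WSD+C it was 5147, 5695, 6952, 729 and 3605 CPM, and WSD+T ran from 1743 through a median of 5077 to 6048 CPM. The low libraries were WSD+C 4, Chow+C 2, WSD+T 3 and WSD+T 6, spread over 3 groups, and the 4 groups overlapped. The highest library was 11.6 times the lowest, and the SD of log2 CPM fell from 0.94 to 0.54 without WSD+C 4, Chow+C 2 and WSD+T 6.

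COL4A2 averaged 5535 CPM ± 1758 (SD, n = 19). It stood at 6683, 2727, 6865 and 6597 CPM in Chow+C and at 8088, 4478, 7593 and 7823 CPM in Chow+T. WSD+C had 5440, 6063, 6430, 1461 and 4750 CPM, and WSD+T ran from 3527 through 5324 to 6509 CPM. Of the Chow+T libraries, 3 lay above every library of the other groups, and Chow+T 2 lay below most Chow+C and WSD+T libraries. The share of all genes with such a pattern was not computed. The fitted log2 difference of Chow+T from Chow+C was 0.29 (SE 0.41; edgeR unadjusted p 0.490, adjusted p 0.898). That of WSD+T from Chow+T was -0.48 (SE 0.37; edgeR unadjusted p 0.218, adjusted p 0.895). COL4A1 and COL4A2 are neighbours whose spans overlap in the RefSeq annotation of the T2T-MMU8v2.0 assembly. The libraries carry no strand, so reads from any stretch that both share could not be assigned to 1 of them.

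**Figure D1:**
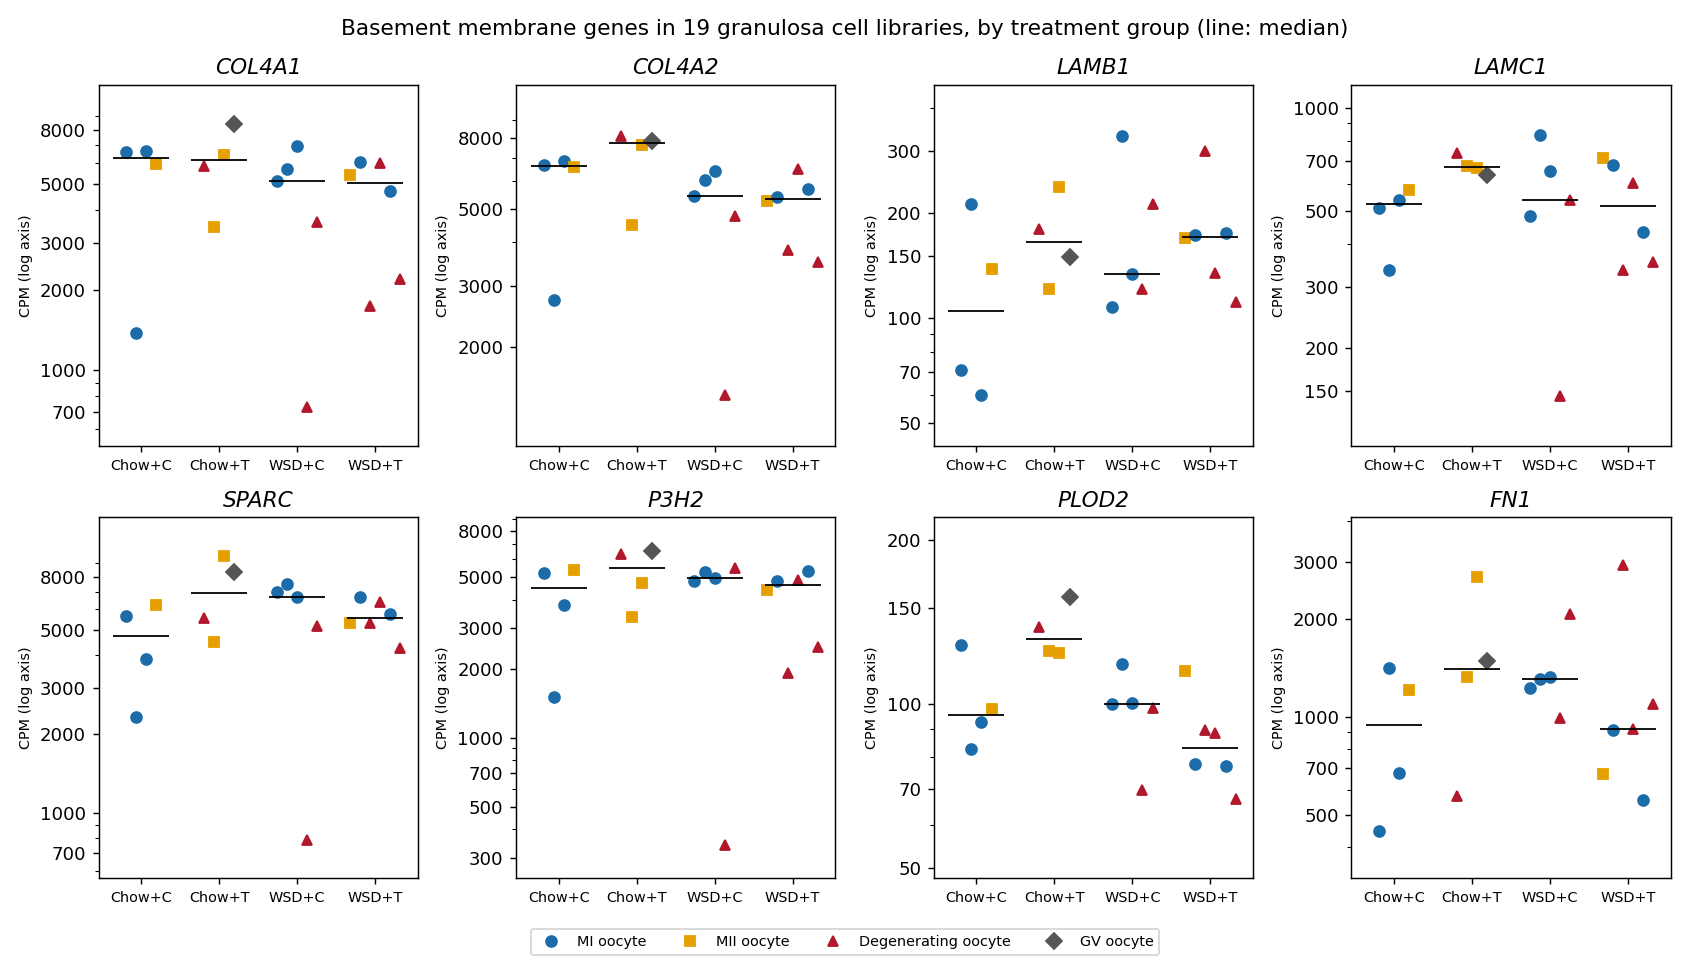
CPM (log axis) of the 8 genes in 19 libraries by treatment group, 1 point a library, shaped and coloured by the class of the oocyte, with a line at the group median. WSD+C 4 is the lowest WSD+C point in every panel but LAMB1, and PLOD2 is at or above 124 CPM in all 4 Chow+T libraries.

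LAMB1, the beta-1 laminin chain, averaged 165 CPM ± 70.5 (SD, n = 19). It ranged from 60.1 to 212 CPM in Chow+C, from 121 to 237 in Chow+T, from 107 to 332 in WSD+C and from 111 to 301 in WSD+T. Its lowest libraries were Chow+C 3 and Chow+C 1, and its highest were WSD+C 2 and WSD+T 3. LAMB1 did not follow COL4A1 into all of its low libraries: Chow+C 2 held 212 CPM and WSD+T 3 held 301 CPM, each the highest of its group. WSD+C 4 held 121 CPM, and WSD+T 6 held 111 CPM, the lowest of WSD+T.

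LAMC1, the gamma-1 chain shared by many laminins, averaged 550 CPM ± 171 (SD, n = 19). Chow+C libraries had 512, 336, 539 and 578 CPM, and Chow+T libraries 739, 677, 666 and 639 CPM. All 4 Chow+T libraries were above all 4 Chow+C libraries, a separation that held for 2.66% of the 15019 genes tested. The fitted log2 difference was 0.47 (SE 0.38), with a 95% interval from -0.33 to 1.27 and, by edgeR's quasi-likelihood test, an adjusted p of 0.799 (unadjusted 0.232). The WSD groups spanned both: WSD+C ran from 145 (WSD+C 4) to 832 CPM (WSD+C 2), and WSD+T from 337 to 713 CPM.

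SPARC averaged 5629 CPM ± 2011 (SD, n = 19) and varied 12.3 fold between its extremes. It ran from 2331 to 6237 CPM in Chow+C, from 4502 to 9615 in Chow+T and from 4264 to 6701 in WSD+T. In WSD+C, 4 libraries lay between 5178 and 7515 CPM and WSD+C 4 at 784 CPM. FN1 averaged 1258 CPM ± 679 (SD, n = 19), from 448 CPM in Chow+C 1 to 2935 in WSD+T 3. FN1 in WSD+C 4 was 993 CPM, the lowest of its group but within the range of each other group, and all group ranges overlapped.

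P3H2 averaged 4292 CPM ± 1658 (SD, n = 19) and had the widest range of the 8, 19.1 fold. It ran from 1510 to 5383 CPM in Chow+C, from 3361 to 6517 in Chow+T and from 1920 to 5316 in WSD+T. WSD+C 4 stood at 341 CPM while the other 4 WSD+C libraries lay between 4827 and 5495 CPM. Its SD of log2 CPM was 1.01 over all libraries and 0.42 without the 3 named above.

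PLOD2 varied least of the 8, 2.34 fold, with a mean of 102 CPM ± 24.5 (SD, n = 19). Chow+C libraries had 128, 82.6, 92.8 and 98.0 CPM, and Chow+T libraries 138, 125, 124 and 157 CPM. WSD+C had 99.95, 118, 100.5, 69.5 and 98.2 CPM, and WSD+T ran from 67.1 through 83.0 to 115 CPM. Every Chow+T library was above every WSD+C library, a separation that held for 1.13% of the 15019 genes tested, and above every WSD+T library (1.17%), and Chow+C 1 was the only Chow+C library within the Chow+T range.

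The treatment comparisons asked whether testosterone, diet or both shift these genes. In edgeR, with p-values adjusted over 15019 genes (Benjamini-Hochberg), 0 of the 8 passed in any of them, beside 0% of all genes. At an unadjusted p under 0.05, PLOD2 passed in Chow+T against Chow+C, where 7.18% of all genes did, and in WSD+T against Chow+T, where 4.97% did. It also passed in the testosterone by diet interaction (4.52% of genes) and in the test of any difference among the 4 groups (6.31%). None of the 8 passed even this rule in WSD+C against Chow+C (5.08% of genes), WSD+T against Chow+C (6.75%) or WSD+T against WSD+C (3.86%) with all libraries. DESeq2 called 4 genes in Chow+T against Chow+C, 3 in WSD+T against Chow+C, 4 in WSD+T against Chow+T, 3 for the interaction and 14 for any difference, none of them a member, and limma-voom called 0.

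The unadjusted results of 4 other members changed on leaving out single libraries. Without Chow+C 2, which had the highest LAMB1 of its group, LAMB1 differed from Chow+C by 0.94 in Chow+T, 1.01 in WSD+C and 0.98 in WSD+T (edgeR unadjusted p 0.0414, 0.0252 and 0.0262). Without all 3 libraries named above, these LAMB1 differences were 0.94, 1.13 and 1.08 (edgeR unadjusted p 0.0362, 0.0149 and 0.0156). They share the Chow+C libraries, and their adjusted p was at least 0.768. In the fits without the 3 libraries, 953, 429 and 525 of 14871 genes passed the same unadjusted rule, in the same order. For the fits without a single library that count is not given here. FN1 without WSD+T 3, its highest library, was -0.87 in WSD+T against Chow+T and -1.43 in the interaction (edgeR unadjusted p 0.0481 and 0.0249). The LAMC1 interaction without WSD+C 4 was -0.74 (edgeR unadjusted p 0.0488). COL4A1 in degenerating against MI follicles without WSD+T 4 was -1.13 (edgeR unadjusted p 0.0493).

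PLOD2 averaged 136 CPM ± 15.3 (SD, n = 4) in Chow+T against 100.5 ± 19.7 (SD, n = 4) in Chow+C. The fitted log2 difference was 0.44 (SE 0.19), with a 95% interval from 0.04 to 0.83 and, by edgeR, an unadjusted p of 0.0324 and an adjusted p of 0.661. In WSD+T the mean was 85.8 CPM ± 16.5 (SD, n = 6), and the log2 difference from Chow+T was -0.67 (SE 0.17, 95% interval -1.02 to -0.31). That difference had an unadjusted p of 0.00104 and an adjusted p of 0.862 in edgeR, and the groups did not overlap, as for 1.17% of all genes. These comparisons share the Chow+T libraries. The interaction was -0.62 (SE 0.25, 95% interval -1.14 to -0.10; edgeR unadjusted p 0.0225, adjusted p 0.933).

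Without WSD+C 4, Chow+C 2 and WSD+T 6, the PLOD2 differences were 0.35, -0.61 and -0.57 in the same order. Oocyte classes are spread unevenly, since Chow+T holds no MI oocyte. With oocyte class as a term and the GV library left out, the differences were 0.38, -0.55 and -0.56 (edgeR unadjusted p 0.143, 0.0196 and 0.0636). Under DESeq2 the WSD+T against Chow+T difference had an adjusted p of 0.0987. The first of the PLOD2 differences also missed an unadjusted p of 0.05 without Chow+C 2, 3 or 4 or Chow+T 1 or 4 (edgeR unadjusted p 0.0503 to 0.0947), and the interaction without Chow+T 4 (0.0542). PLOD2 was not called in any of these fits, and these 3 differences kept their direction in each.

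Signs over the 8 genes are a description. In Chow+T against Chow+C all 8 fitted differences were positive, with a median log2 value of 0.45 against -0.02 for all genes, from 0.23 (COL4A1) to 0.70 (FN1). Without Chow+C 2 the COL4A1 difference was -0.08, so that 7 of 8 were positive, and the median was 0.34. In WSD+T against Chow+T, 1 of 8 was positive (LAMB1, 0.04), and the median was -0.39 against 0.04 for all genes. In a fit that included the leukocyte score, 3 of 8 were positive there and the median was -0.11. In the interaction 0 of 8 were positive, from -0.93 (FN1) to -0.23 (COL4A2), with a median of -0.52 against 0.01. With the leukocyte score in the fit, the interaction had 3 of 8 positive (COL4A1 0.36, COL4A2 0.16 and P3H2 0.17) and a median of -0.10. Without Chow+C 2 it had 2 of 8 positive (COL4A1 0.06 and COL4A2 0.00) and a median of -0.36. These 3 sets share the Chow+T libraries.

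In the remaining treatment comparisons the members' differences had both signs. WSD+C against Chow+C had a median of 0.09, from -0.24 (COL4A2) to 0.59 (LAMB1). WSD+T against Chow+C, which shares the same control libraries, had a median of 0.04, from -0.24 (COL4A1) to 0.56 (LAMB1). WSD+T against WSD+C had a median of -0.03, from -0.23 (FN1) to 0.06 (COL4A2). Without WSD+C 4 the medians were 0.36 in WSD+C against Chow+C and -0.27 in WSD+T against WSD+C, and without Chow+C 2 they were -0.08 in WSD+C and -0.17 in WSD+T against Chow+C. With the leukocyte score in the fit, the median was -0.01 in WSD+C against Chow+C, 0.21 in WSD+T against Chow+C and 0.34 in WSD+T against WSD+C. The intervals were wide: for COL4A1 in WSD+T against WSD+C the 95% interval ran from -1.10 to 1.05, so changes of up to that size could not be told from none.

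**Figure D2:**
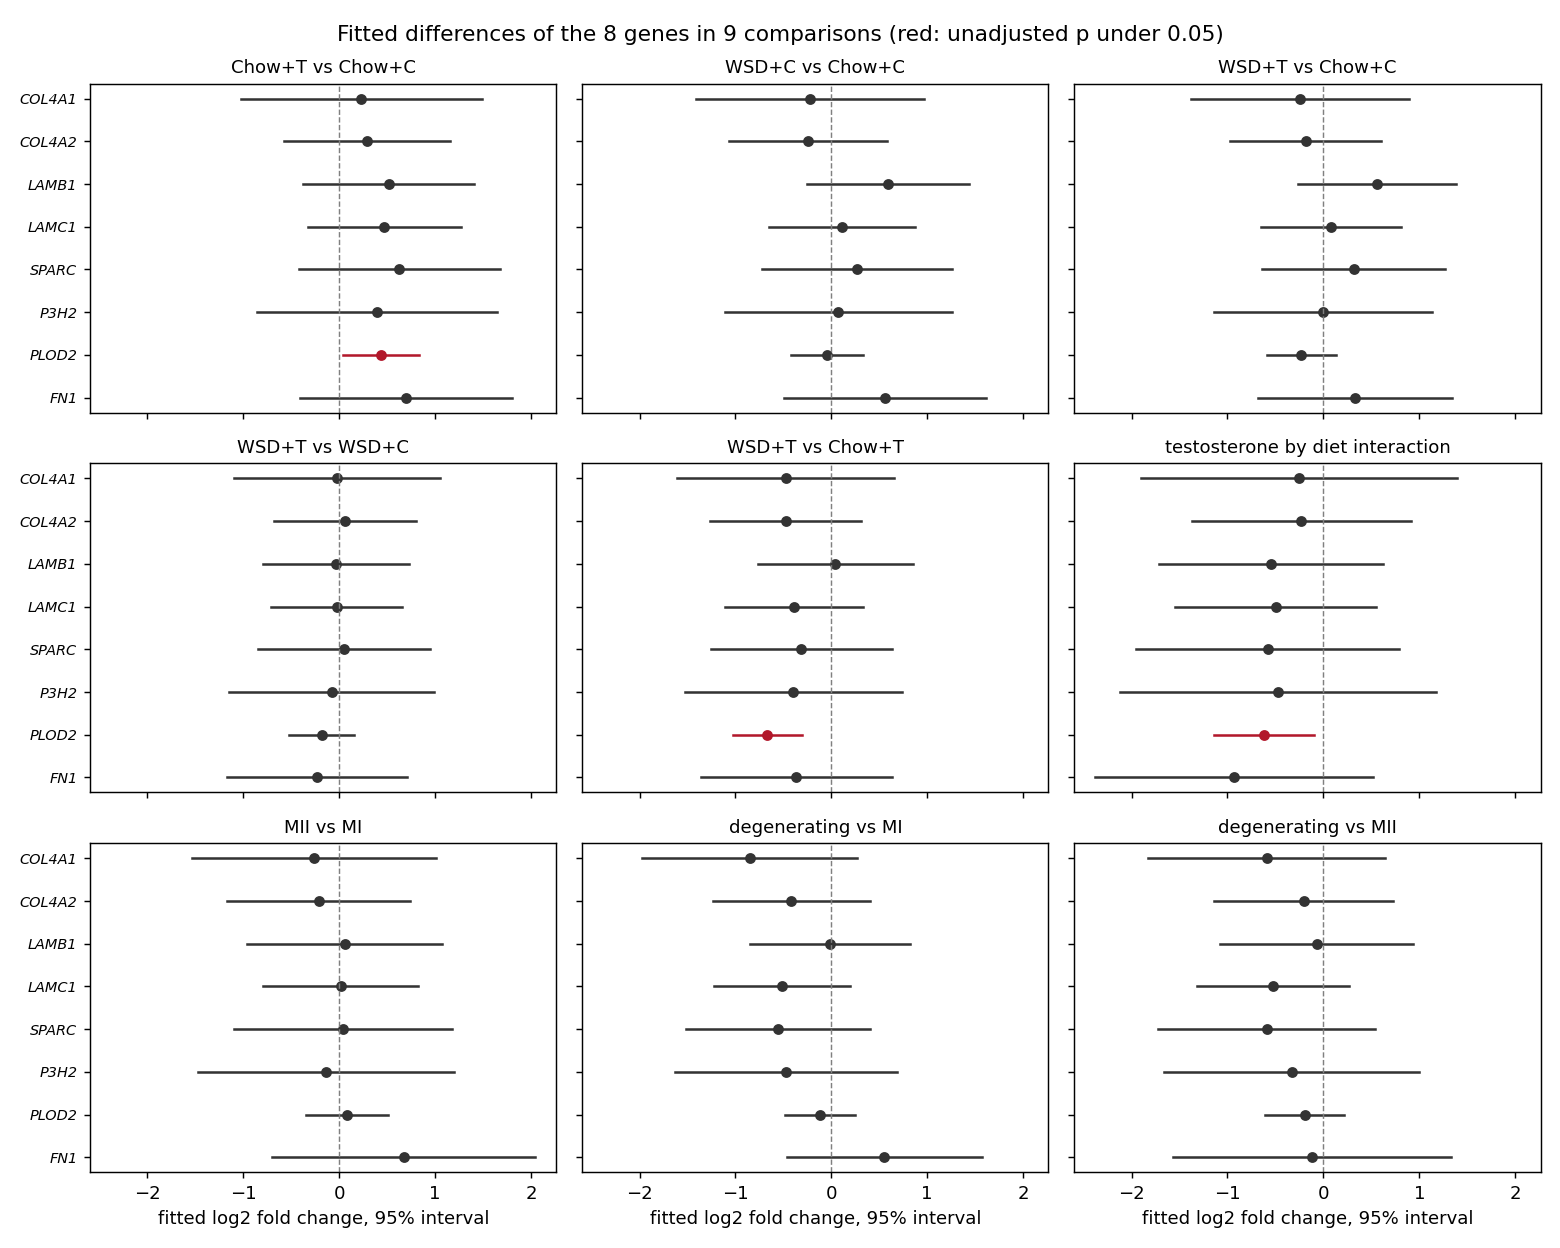
Fitted log2 fold changes (points) with 95% intervals (lines) of the 8 genes in 6 treatment and 3 oocyte comparisons. Intervals that leave out 0 are those of PLOD2 in Chow+T vs Chow+C (0.44), WSD+T vs Chow+T (-0.67) and the interaction (-0.62), none of which passed after adjustment.

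The oocyte comparisons asked whether the granulosa cells of follicles with MI (n = 8), MII (n = 4) and degenerating oocytes (n = 6) differ, with treatment group as a term. None of the 8 genes passed the adjusted threshold over 14976 genes in edgeR, beside 0% of all genes. None passed an unadjusted p under 0.05 either, where 3.91% of genes did for MII against MI, 14.3% for degenerating against MI, 3.38% for degenerating against MII and 9.29% for any difference. DESeq2 called 6, 801, 8 and 280 genes in those comparisons and limma-voom 0, with no member among them.

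Libraries with degenerating oocytes held COL4A1 at 5884 (Chow+T 1), 729 (WSD+C 4), 3605 (WSD+C 5), 1743 (WSD+T 3), 6000 (WSD+T 4) and 2197 CPM (WSD+T 6). MI libraries ran from 1387 (Chow+C 2) through a median of 5872 to 6952 CPM, so 4 degenerating libraries lay below every MI library but Chow+C 2. The fitted COL4A1 difference was -0.85 (SE 0.52), with a 95% interval from -1.97 to 0.27 and, in edgeR, an adjusted p of 0.463. It was -0.45 without the 3 libraries named above, -0.50 without WSD+C 4 alone and -0.21 with the leukocyte score in the fit. COL4A1 in MII libraries ran from 3468 to 6450 CPM, and the single GV library stood at 8442 CPM.

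Against MI, 7 of the 8 fitted differences in degenerating follicles were negative, with a median of -0.44 against 0.02 for all genes, and FN1 was the exception at 0.55. The median was -0.11 without WSD+C 4, -0.07 without the 3 libraries named above and 0.10 in a fit that included the leukocyte score. Leukocyte scores had a median of 3.16 in degenerating and 0.37 in MI libraries, and their summed marker level ran from 8.89 to 2272 CPM and from 6.03 to 63.1 CPM. The part of other cells in these differences was not tested further. MII against MI had a median of 0.02 and degenerating against MII one of -0.27, with 0 of 8 positive. With the leukocyte score in the fit these medians were 0.38 and -0.16.

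Since alpha-1 and alpha-2 chains assemble together, the ratio of COL4A1 to COL4A2 reads was taken within each library, where the scaling cancels. The ratio had a median of 0.903 and ran from 0.458 to 1.12. It was lowest in WSD+T 3 (0.458), WSD+C 4 (0.499), Chow+C 2 (0.509) and WSD+T 6 (0.623), the same 4 libraries in which COL4A1 was lowest. Leukocyte scores in these 4 were 4.10, 7.08, -0.00 and 7.14, against a median of 1.28 over the 19 libraries. Chow+C 2 was also the library with the lowest share of reads in genes and the highest mitochondrial share. The cause of the low ratios was not tested.

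By oocyte class, the degenerating libraries had ratios of 0.727 (Chow+T 1), 0.499 (WSD+C 4), 0.759 (WSD+C 5), 0.458 (WSD+T 3), 0.922 (WSD+T 4) and 0.623 (WSD+T 6). MI libraries lay between 0.833 and 1.12, apart from Chow+C 2. Of the degenerating libraries, 5 were below every MI library but Chow+C 2, and WSD+T 4 was within the MI range. Mean log2 ratios were -0.63 ± 0.38 (SD, n = 6) and -0.15 ± 0.36 (SD, n = 8). The difference of -0.48 had a two-sided exact permutation p of 0.0343, which was 0.549 after adjustment over 16 ratio comparisons. Unlike the fits by oocyte class, this test had no treatment term. Chow+C holds 3 MI and 0 degenerating libraries, and Chow+T 0 MI and 1 degenerating, so class and treatment are not separated in it.

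Leaving out Chow+C 2 made the difference -0.60 (exact permutation p 0.00117, adjusted p 0.0186), the 1 of 16 that then passed. Leaving out WSD+C 4, Chow+C 2 and WSD+T 6 together gave -0.50 (exact permutation p 0.00606, adjusted p 0.0970). Leaving out WSD+T 3 instead gave -0.38 (exact permutation p 0.0793). The p was also above 0.05 without Chow+C 1 or 3, WSD+C 1, 2, 3 or 4, or WSD+T 2 or 6 (exact permutation p 0.0519 to 0.0723). It stayed under 0.05 without Chow+T 1, WSD+C 5, or WSD+T 4 or 5 (exact permutation p 0.0140 to 0.0425). Degenerating against MII differed by -0.45 (exact permutation p 0.0762), and the 5 treatment comparisons of this ratio lay between -0.09 and 0.06.

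The LAMB1 to LAMC1 ratio varied more, from 0.111 (Chow+C 3) to 0.893 (WSD+T 3) around a median of 0.244. It was high in WSD+T 3, WSD+C 4 (0.832) and Chow+C 2 (0.632), 3 of the 4 libraries in which the collagen ratio was low, and at 0.313 in WSD+T 6. The smallest exact permutation p of its 8 comparisons was 0.152. In degenerating libraries the mean log2 ratio was -1.28 ± 0.87 (SD, n = 6) against -1.97 ± 0.84 (SD, n = 8) in MI libraries.

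**Figure D3:**
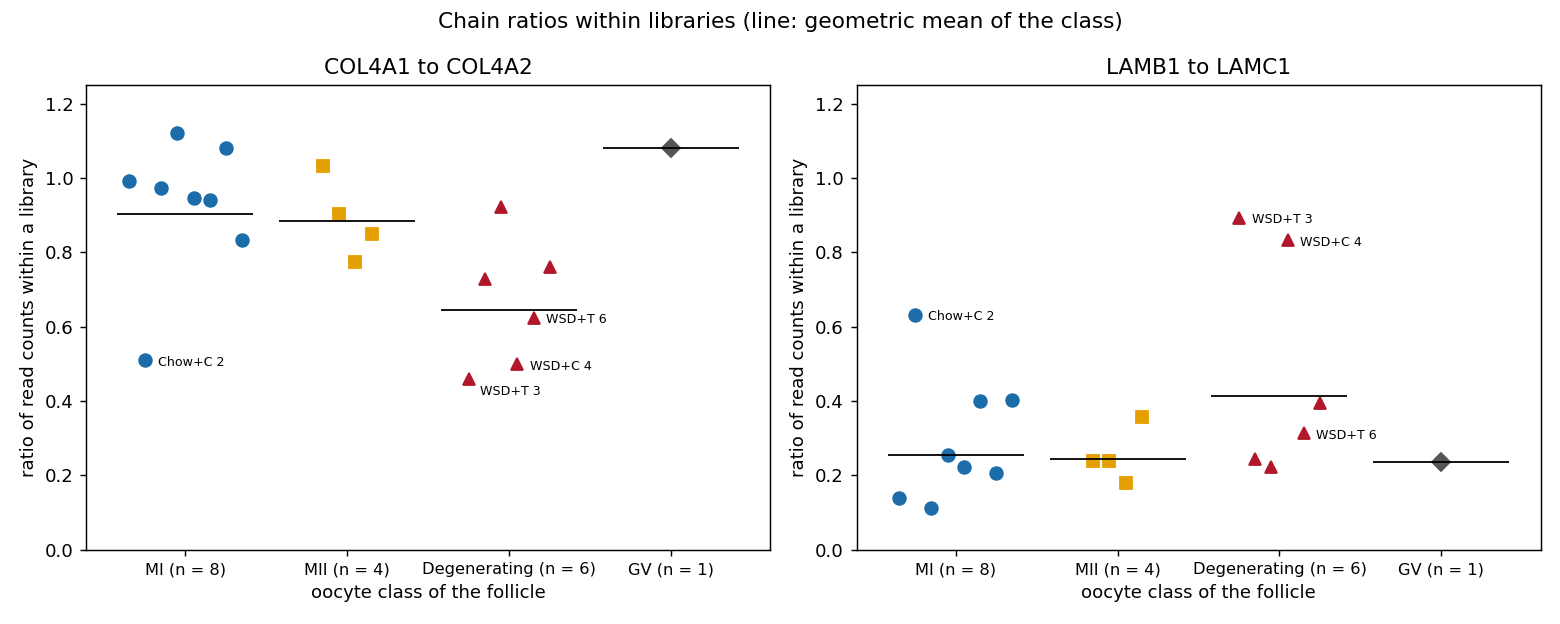
Ratio of COL4A1 to COL4A2 reads (left) and of LAMB1 to LAMC1 reads (right) within each library, by oocyte class, 1 point a library with a line at the geometric mean. Degenerating libraries lie between 0.458 and 0.922 on the left, and Chow+C 2 (0.509) is the 1 low MI library.

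Across the 19 animals, 5 of the genes varied together: COL4A1, COL4A2, P3H2, SPARC and LAMC1. All 10 of their pairs had Pearson's r of log2 CPM between 0.840 and 0.962, and each passed a permutation test after adjustment over 28 pairs (largest adjusted p 0.00132). Spearman's rho for these pairs lay between 0.440 and 0.856, and 5 of the 10 passed. Without the 2 libraries farthest from the median, WSD+C 4 and Chow+C 2, r lay between 0.414 and 0.902, and without the 3 libraries named above between 0.290 and 0.867. All libraries share 1 scaling, and without it r for these pairs lay between 0.803 and 0.965. The share of all gene pairs with r this high was not computed. Such r was not particular to these genes: MDH1 had r 0.961 with COL4A1, and DDOST had r 0.979 with SPARC.

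COL4A1 and COL4A2 were the closest pair, with r 0.962 (permutation p 1e-05, the smallest that 100000 resamples can give, adjusted 9.33e-05) and rho 0.856 (permutation p 1e-05, adjusted 0.00028). Their r was 0.902 without WSD+C 4 and Chow+C 2 and 0.867 without the 3 libraries. COL4A2 and P3H2, chain and hydroxylase, had r 0.938 (permutation p 1e-05, adjusted 9.33e-05) and rho 0.689, with r 0.786 and 0.714 on leaving out the same libraries. These 2 pairs alone passed the adjusted threshold without the 3 libraries. SPARC and LAMC1 had r 0.840 (permutation p 0.00047, adjusted 0.00132) and 0.290 without the 3, so their relation rests on those libraries.

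PLOD2 followed the 5 more loosely, with r between 0.530 and 0.660, all 5 past the adjusted threshold, and between 0.252 and 0.476 without the 3 libraries, where 0 passed. LAMB1 and FN1 stood apart over the 19 libraries: their 10 pairs with the 5 had r between -0.248 and 0.215, and 0 passed. Without the 3 libraries these r lay between -0.448 and 0.430. LAMB1 with SPARC (0.430) was then above SPARC with LAMC1 (0.290), so the split was less clear. LAMB1 and FN1 were related to each other, with r 0.573 (permutation p 0.01, adjusted 0.0187) but rho 0.432 (permutation p 0.0657, adjusted 0.115). Their r was 0.584 without Chow+C 3 and WSD+C 2, and 0.573 without the 3 libraries. Over all 28 pairs, 16 passed by r and 7 by rho, and the share over all gene pairs was not computed.

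**Figure D4:**
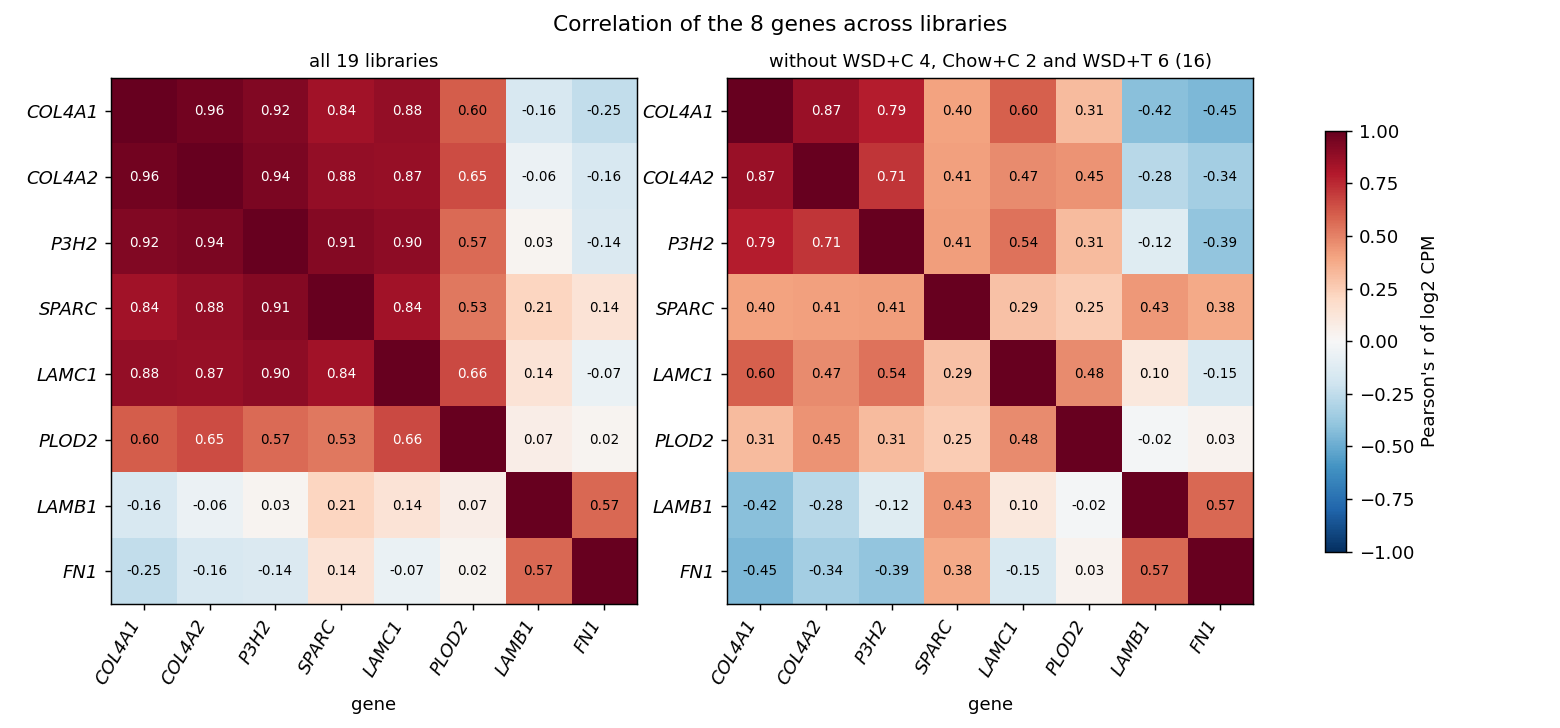
Pearson's r of log2 CPM for each pair of the 8 genes, over 19 libraries (left) and without WSD+C 4, Chow+C 2 and WSD+T 6 (right). The block of COL4A1, COL4A2, P3H2, SPARC and LAMC1 has r of at least 0.840 on the left and at least 0.290 on the right. LAMB1 and FN1 lie between -0.248 and 0.215 with that block on the left and between -0.448 and 0.430 on the right.

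The genes were also set against 6 marker scores, since cells other than granulosa cells can make basement membrane or dilute it. Of 48 relations, 24 passed by r after adjustment, 0 by rho, and 0 by r without the 3 libraries. The share of all genes related to these scores was not computed. With the leukocyte score, the 5 genes that varied together had r between -0.660 and -0.548. Without WSD+T 6 and WSD+C 4 these r lay between -0.311 (COL4A1) and -0.070 (SPARC). Without the 3 libraries they lay between -0.588 (COL4A1) and -0.294 (SPARC). With the endothelial score the r of these 5 genes lay between -0.712 (LAMC1) and -0.653 (SPARC), and all 5 passed after adjustment. Without WSD+T 6 and WSD+C 4 those r lay between -0.334 (LAMC1) and -0.233 (COL4A2), and without the 3 libraries between -0.552 (SPARC) and -0.387 (COL4A2). LAMC1 with the smooth muscle score had r -0.868 (permutation p 0.0001, adjusted 0.0048), rho -0.612 (permutation p 0.00624, adjusted 0.0998) and r -0.573 without WSD+C 4 and WSD+T 3. With the granulosa score COL4A1 had r 0.612 (permutation p 0.00524, adjusted 0.0208) and COL4A2 r 0.640 (permutation p 0.00254, adjusted 0.0208). Without WSD+C 4 and WSD+T 6 those were 0.335 and 0.373, so the size of r depended on those libraries. Over all libraries rho was 0.644 for COL4A1 (permutation p 0.00367, adjusted 0.0881) and 0.565 for COL4A2 (permutation p 0.0135, adjusted 0.130).

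LAMB1 and FN1 passed with no marker score. With the smooth muscle score, LAMB1 had r -0.04 and FN1 0.04, and with the leukocyte score -0.13 and 0.11. In WSD+C 4, the library with the highest smooth muscle score (5.54), the 5 genes were at their lowest and FN1 and LAMB1 were within the range of the other libraries. Endothelial markers summed to between 6.51 and 137 CPM, with the highest sums in WSD+T 6 (137 CPM) and WSD+C 4 (114 CPM). Smooth muscle markers summed to between 13.3 and 2680 CPM.

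**Figure D5:**
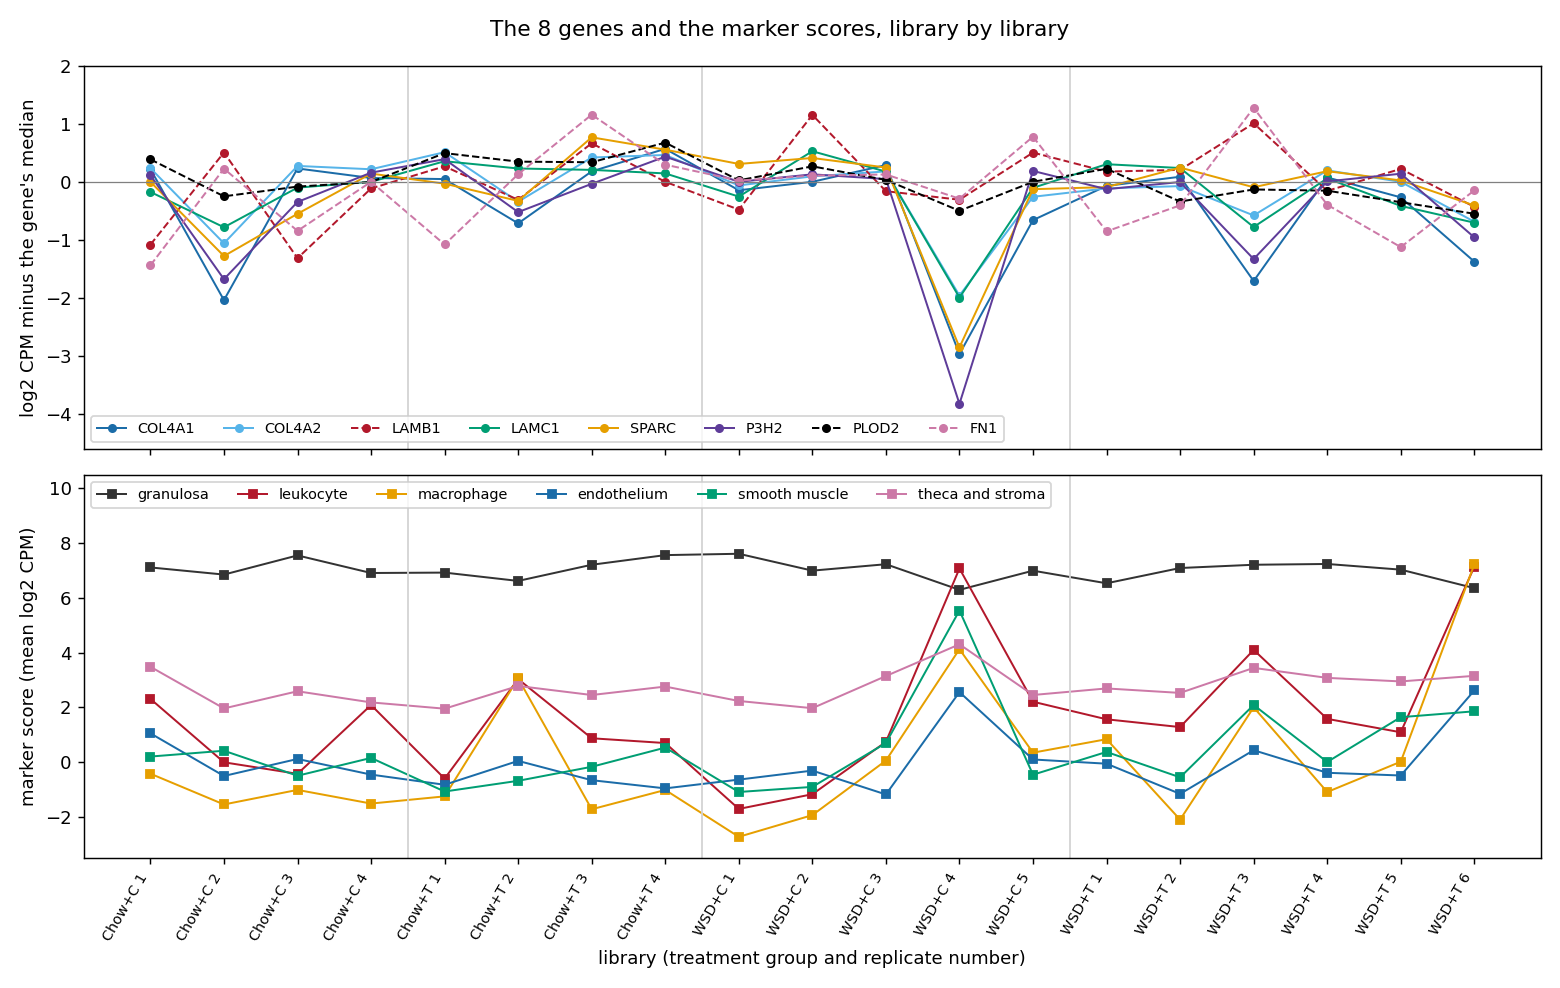
Top: log2 CPM of the 8 genes minus each gene's median, library by library. Bottom: 6 marker scores (mean log2 CPM of each list) in the same libraries. In WSD+C 4 the 5 genes that varied together lie lowest and the leukocyte (7.08) and smooth muscle (5.54) scores are high, while Chow+C 2 has low collagen IV at a leukocyte score of -0.00.

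Genes with profiles most like these were ranked by r over the 19 libraries among 8407 genes with a mean log2 CPM of at least 3. The mean of the 8 members was closest to KIAA0319L (r 0.952), CALU (0.944), COPS2 (0.942), TFPI (0.939) and PPIB (0.934). CALU is a calcium-binding protein of the secretory pathway, TFPI an inhibitor of coagulation and PPIB a prolyl isomerase of the endoplasmic reticulum that works on procollagen. COL4A1 was closest to HSP90B1 (r 0.963), an endoplasmic reticulum chaperone, then MDH1 and MPHOSPH6. COL4A2 was closest to COL15A1 (r 0.952), a collagen of basement membrane zones, then GANAB and GLA.

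SPARC was closest to DDOST (r 0.979), then TMBIM6 and RPN2, where DDOST and RPN2 are subunits of the oligosaccharyltransferase that attaches N-glycans. P3H2 was closest to C5orf62 (r 0.978), GLA and SDF4, and LAMC1 to UAP1 (r 0.961), GLT8D1 and KIAA0319L. The other 3 members had other neighbours. PLOD2 was closest to RECK (r 0.807), a membrane-anchored inhibitor of metalloproteinases, then FKBP9. FN1 was closest to PLS3 (r 0.894), an actin-bundling protein, and LAMB1 to EPB41L5 (r 0.712). Without the 3 libraries, r was 0.700 for RECK with PLOD2, 0.913 for PLS3 with FN1 and 0.764 for KIAA0319L with the mean of the 8. The ranking itself changed: of 29 places, 8 were held by genes that stayed among the nearest without the 3 libraries, and 2 of 9 first places were kept (RECK for PLOD2 and PLS3 for FN1). COL4A1 was then closest to EGFR (r 0.908), COL4A2 to TANC1 (r 0.899), P3H2 to TRAFD1 (r 0.954) and the mean of the 8 to COPS2 (r 0.859).

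Other genes of the same matrix were given by lists. Among the 6 collagen IV chains, COL4A3 averaged 24.9 CPM and COL4A5 41.0 CPM, and neither these nor COL4A4 or COL4A6 passed the adjusted threshold in any comparison. In WSD+T against WSD+C, COL4A3 and COL4A4 had log2 differences of -1.52 and -1.27 (edgeR unadjusted p 0.0226 and 0.0305, adjusted p 0.999 for each), while COL4A1 and COL4A2 had -0.02 and 0.06. The chains at an unadjusted p under 0.05 there were 33.3% of the 6, beside 3.86% of all genes. COL4A3 averaged 45.6 CPM ± 63.9 (SD, n = 5) in WSD+C, from 8.83 to 160 CPM. In WSD+T it ran from 6.90 to 20.8 CPM. COL4A4 averaged 26.5 CPM ± 29.6 (SD, n = 5) in WSD+C, from 7.54 to 79.1 CPM, and ran from 6.34 to 15.6 in WSD+T. For each gene the highest library was WSD+C 4 or WSD+C 5, the WSD+C libraries with a degenerating oocyte. Differences without the highest library were not tested, so whether they rest on 1 library is not known. In WSD+T against Chow+T all 6 chains had negative differences, with a median of -0.48 against 0.04 for all genes, and 0 of 6 passed either threshold.

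Of 11 laminin chains, LAMB2 (695 CPM), LAMA1 (128 CPM) and LAMA3 (121 CPM) were found beside LAMB1 and LAMC1, and 0 of 11 passed the adjusted threshold anywhere. In Chow+T against Chow+C, 7 of 11 were positive with a median of 0.14. LAMC3 differed by -0.99 in WSD+T against WSD+C (edgeR unadjusted p 0.0364, adjusted p 0.999), and LAMA2 by 1.64 in degenerating against MI (unadjusted p 0.0347, adjusted p 0.318) at a mean of 1.57 CPM.

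The list of other basement membrane components, which includes SPARC and FN1, had 14 genes tested, and 0 passed the adjusted threshold. HSPG2, the proteoglycan perlecan, averaged 1123 CPM, and COL18A1, the source of endostatin, ran from 30.5 to 2337 CPM. AGRN, the proteoglycan agrin, differed by -0.59 both in Chow+T against Chow+C (edgeR unadjusted p 0.0124, adjusted p 0.658) and in WSD+T against Chow+C (unadjusted p 0.00641, adjusted p 0.717). Those comparisons share the Chow+C libraries.

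Of 26 genes for collagen modification, folding and secretion, 21 were tested, P3H2 and PLOD2 among them. In Chow+T against Chow+C, 18 of 21 were positive with a median of 0.32 against -0.02 for all genes, and 2 (9.52%, against 7.18% of all genes) passed an unadjusted p under 0.05, PLOD2 and P4HA3. P4HA3, a prolyl 4-hydroxylase subunit at a mean of 2.43 CPM, differed by 1.497 there and by -1.48 in WSD+T against Chow+T (edgeR unadjusted p 0.0216 and 0.0113, adjusted p 0.658 and 0.862). In WSD+T against Chow+T, 1 of 21 was positive, with a median of -0.20 against 0.04.

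In degenerating against MI follicles, 1 of the 21 modification genes was positive, with a median of -0.47 against 0.02 for all genes, and 0 passed the adjusted threshold. The 3 at an unadjusted p under 0.05 in edgeR, 14.3% of the list and 14.3% of all genes, were FKBP14 (-1.16, p 0.0142), P4HA2 (-0.81, p 0.0376) and P4HA1 (-0.80, p 0.0425). FKBP14 is a prolyl isomerase of the endoplasmic reticulum, and P4HA1 and P4HA2 are catalytic subunits of collagen prolyl 4-hydroxylase. SERPINH1, the collagen chaperone HSP47, differed by -0.97 in degenerating against MII (unadjusted p 0.0354, adjusted p 0.962). The leukocyte scores given above differ between the same classes, and their part was not tested for this list.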

How the data were processed

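The 8 genes and the lists were chosen with earlier results of these data known. The authors deposited raw read counts per gene for 19 libraries, polyA-selected and non-directional per the labels. Per the submitters' processing notes, Trimmomatic and STAR were used. Their versions, the build and the annotation were not given in the sources used here, and no coordinates are printed. The 4 classes that are not genes (such as no-feature reads) stayed out of library sizes.

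Counts were filtered by filterByExpr (minimum count 10, minimum total 15) and scaled by TMM in R 4.3.3. They were tested two-sided with edgeR 4.0.16 (robust quasi-likelihood, Benjamini-Hochberg over all genes, threshold 0.05). One fit held the 4 treatment groups, and a second held 18 libraries with oocyte class and treatment group, leaving out the GV library. CPM are TMM-scaled and log2 CPM use a prior count of 1. Library pairs correlated between 0.745 and 0.981 (log2 CPM), so none was a copy of another. Gene counts per library, 28832132 to 56385679, cover counting error only, since no molecular identifiers were used. Replicate numbers follow sample order and pair nothing.

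Ratios were tested by exact permutation, and relations with 100000 resamples, both without a treatment term. DESeq2 1.42.0, limma 3.58.1, other filters and scalings, left-out libraries and covariates were alternatives. A member's difference is named singly at an unadjusted p under 0.05; values of COL4A1, LAMB1, LAMC1 and FN1 outside that rule, and genes nearest without 3 libraries, were chosen after they were seen. From each list at most 3 genes per comparison are named by smallest p, and by r the 5 genes nearest to the members' mean and up to 3 for each member (1 gene is not reported here). The code was tested on simulated counts.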

Additional observations from a re-analysis of the deposited data

Results flagged for a closer look

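A library far from its group was looked for in 70 tests, of each gene and each chain ratio in groups of 4 to 8 libraries. Of these tests 12 were marked, where chance marks about 1 in 20 independent tests. The measure is the gap from the extreme library to its nearest neighbour, divided by the group's whole range on the log2 scale, and in all 12 cases the library was the lowest. Chow+C 2 was far below the other Chow+C libraries for COL4A1 (0.928), COL4A2 (0.957) and the COL4A1 to COL4A2 ratio (0.860). It was also far below the other MI libraries for COL4A1 (0.761), COL4A2 (0.739), P3H2 (0.732) and the ratio (0.624). WSD+C 4 was far below the other WSD+C libraries for COL4A2 (0.796), SPARC (0.835) and P3H2 (0.953), and below the other degenerating libraries for SPARC (0.805). Chow+T 2 was far below the other Chow+T libraries for COL4A2 (0.893). LAMB1, LAMC1, PLOD2 and FN1 had no such library in any group. The groups of treatment and of oocyte class hold the same libraries, and several of the measures vary together. These 12 are therefore not independent of each other, and the excess over 1 in 20 is not read.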

How the results depend on the processing

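None of the 8 genes was called in any comparison under any alternative run, and the PLOD2 differences in Chow+T vs Chow+C, WSD+T vs Chow+T and the interaction kept their direction in all of them. In some of the other comparisons the sign of PLOD2 changed with the setting. Counts over all genes, 0 in edgeR, moved with the tool: DESeq2 called 4 (Chow+T vs Chow+C), 3 (WSD+T vs Chow+C), 4 (WSD+T vs Chow+T), 3 (interaction), 14 (any treatment difference), 6 (MII vs MI), 801 (degenerating vs MI), 8 (degenerating vs MII) and 280 (any oocyte difference). For degenerating against MI, edgeR called 1 gene without WSD+C 4, Chow+C 2 and WSD+T 6 and 574 with no treatment term. Leaving out 1 library at a time gave 0 to 226 genes there, the highest without Chow+T 1, and 0 to 1 for degenerating against MII, the highest without WSD+C 2. With the leukocyte score as a term, the count was 6 for degenerating against MII and 8 for any oocyte difference, and with no treatment term the latter was 400. The median of the 8 genes in degenerating against MI moved from -0.44 to 0.10 with the leukocyte covariate. Relations among the 8 genes that passed went from 16 to 2, and those with marker scores from 24 to 0, without the 3 libraries. Ratio comparisons that passed ranged from 0 to 1 on leaving out 1 library, with 1 only without Chow+C 2. The cause was not tested.

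No paired analysis was possible, since each animal gave a single library in a single treatment group and oocyte class. The labels give no replicate numbers. With 4 to 6 animals a group, intervals of the abundant genes span about a log2 unit to each side, and counting depth is not what limits them.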
